A study of Mus musculus with 16 samples.

Results

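Adipose tissue of mice that had been undernourished before birth and had then grown fast was compared with that of normally nourished mice after both had been given tauroursodeoxycholic acid (TUDCA), to ask which genes still differed by early nutrition. By their titles 8 of the 16 arrays of the series belong to this comparison, 4 of the group UN-RG-TU (numbered 13 to 16) and 4 of the group NN-TU (numbered 5 to 8). UN-RG-TU mice were male C57Bl/6 NCrSlc offspring of dams held to 60% of the energy of the controls, raised in litters reduced to 4 pups so that they grew rapidly, and given TUDCA by mouth from the age of 11 to 16.5 wks. NN-TU mice were male C57Bl/6 NCrSlc offspring of dams fed regular chow without limit, and had the same TUDCA treatment. By the study's methods NN litters were adjusted to 8 pups. One label of the NN-TU samples reads NN-RG-TU, whereas their titles and the maternal diet give no litter reduced to 4 pups, and the titles were followed. All of them ate a high-fat diet from 9 wks. The other 8 arrays, set beside these where they show a difference, are the vehicle-treated groups UN-RG-Veh (9 to 12) and NN-Veh (1 to 4), which share the strain, sex, diet and ages. Maternal restriction and the small litter come together in every UN-RG mouse and cannot be told apart, and the litters of the single mice are not given in the sources used here, so that the tests measure the spread between these samples.

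TUDCA is a bile acid that acts as a chemical chaperone, easing the folding of proteins in the endoplasmic reticulum. In obese visceral fat, macrophages, T cells and natural killer cells gather among the adipocytes, and interferon-γ made by lymphocytes turns on GTPases of cell-autonomous defence, the immunoproteasome and the loading of MHC class I molecules with peptide. Smooth muscle of the vessels, mesothelium on the surface and resident macrophages make up other parts of the pad, and whole-tissue RNA holds them all. Fewer cells of a type and less RNA per cell cannot be told apart in such samples.

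Each array gave 1 normalized intensity for each of 22206 transcript clusters, sets of probes for the transcripts of 1 gene, and levels are given as its log2. Differences are log2 fold changes, UN-RG over NN, from a limma fit of the 4 group means. A gene is called higher or lower here at the study's thresholds, an unadjusted p under 0.05 with a linear fold change of at least 1.3 (0.38 on the log2 scale). A level can be read against 220 antigenomic controls, probe sets that match no mouse transcript, whose median was 6.27 to 6.85 on the 16 arrays.

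The label of adipose tissue was borne out by its markers, 15 of 15 measured adipocyte genes lying above the antigenomic median, with *Adipoq*, the hormone adiponectin, at 18.04 to 18.35 on the 8 TUDCA arrays. Some arrays also held transcripts of other tissues. The mean of 14 genes of motile cilia was 7.32 on UN-RG-TU 14 and 8.22 on NN-TU 8, against 5.59 to 5.86 on the other 6 TUDCA arrays, and 1 vehicle array in each group stood apart in the same way. Genes of testis were at a mean of 7.06 on NN-TU 8 and 5.69 on UN-RG-TU 14, against 4.72 to 5.07 on the other 6 TUDCA arrays. Among the vehicle arrays they were at 7.24 on NN-Veh 3, which did not stand apart in cilia genes. On NN-Veh 2 they were at 5.76, and on the remaining vehicle arrays at 4.63 to 4.97. Of 12 genes of epididymis 0 lay above the antigenomic median. Of 18 genes of intestine, 13 had their highest value of all 16 arrays on UN-RG-TU 13, such as *Fabp2*, a fatty acid carrier of enterocytes, at 11.13 there against at most 5.0 on the other 7. Of 21 genes of liver, 17 were highest on NN-TU 6, such as *Alb*, albumin, at 12.66 there against 7.95 to 9.00 on the other TUDCA arrays. The mean of these 21 genes was 8.10 on NN-TU 6, 7.19 on NN-Veh 4 and 5.79 to 6.56 on the remaining arrays. The lists of intestine and liver were written after these values had been seen.

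No transcript cluster differed between UN-RG-TU and NN-TU at an adjusted p under 0.05 by limma, the smallest adjusted p being 1.0, and 679 clusters (3.06%) had an unadjusted p under 0.05. At the study's thresholds UN-RG-TU was higher than NN-TU in 257 clusters (1.16%) and lower in 150 (0.675%), 407 (1.83%) in all. The 4 arrays of UN-RG-TU lay above all 4 of NN-TU in 213 clusters (0.959%) and below all 4 in 207 (0.932%), so that 420 (1.89%) did not overlap. The split between higher and lower moved with the scaling, to 208 higher and 211 lower after quantile normalization and to 194 and 163 after centring of the arrays on their medians. With clusters near the controls filtered out there were 69 higher and 73 lower, and by the methods' t-test 122 and 103. Without UN-RG-TU 14 there were 711 higher and 265 lower, without UN-RG-TU 16 there were 395 and 233, without NN-TU 6 there were 402 and 177, and without the 4 arrays with cilia transcripts 601 and 307. Without the arrays with transcripts of intestine and liver, UN-RG-TU 13 and NN-TU 6, 317 were higher and 178 lower.

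With all arrays kept, the difference by early nutrition was smaller in size under TUDCA than under vehicle. The median absolute log2 fold change over all clusters was 0.11 between UN-RG-TU and NN-TU and 0.13 between UN-RG-Veh and NN-Veh, and its 95th percentile was 0.36 and 0.47. A linear fold of at least 1.3 was reached by 964 clusters under TUDCA and by 2048 under vehicle. Under vehicle 2 clusters (0.00901%), *Casp1* and *Lyve1*, passed the adjusted p, and 547 (2.46%) were higher and 441 (1.99%) lower at the study's thresholds, 988 (4.45%) in all. The vehicle groups did not overlap in 973 clusters (4.38%), 426 of them (1.92%) with UN-RG-Veh below. The TUDCA counts at the study's thresholds moved with single arrays, to 711 higher and 265 lower without UN-RG-TU 14. The vehicle counts were not recomputed with arrays left out, and the gap in size over all clusters was not tested. The median standard error was 0.17 in both comparisons, since they come from 1 fit. With TUDCA the 95% interval of the difference had a median half-width of 0.37, and for 21176 clusters (95.4%) it lay within 1 on the log2 scale.

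**Figure D1:**
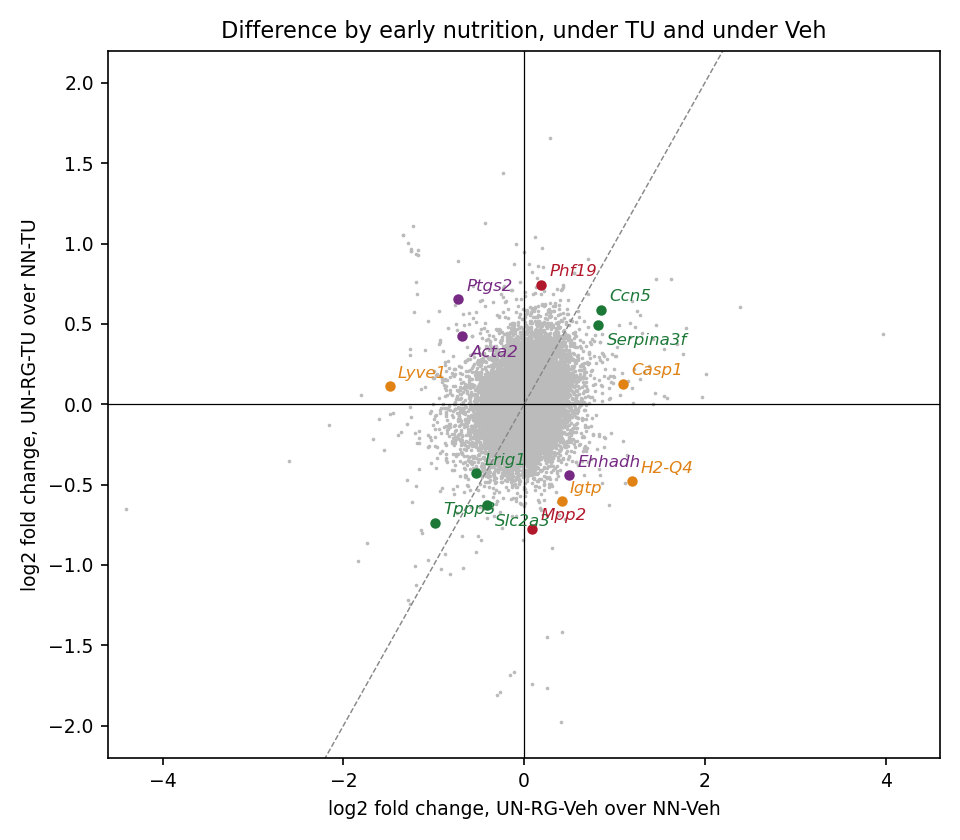
Difference by early nutrition for each of 22206 transcript clusters, as the log2 fold change of UN-RG-TU over NN-TU on the vertical axis and of UN-RG-Veh over NN-Veh on the horizontal axis, which share no array. Genes called in the same direction in both comparisons are green, in opposite directions purple, *Phf19* and *Mpp2*, called under TUDCA alone, red, and genes with a large interaction or of the interferon response orange, and the dashed line marks equal differences.

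The 24 clusters whose groups differed at least 2-fold under TUDCA, 8 higher and 16 lower in UN-RG-TU, rested mostly on single arrays. For 14 of them leaving out 1 array brought the difference under the fold of 1.3, and 0 stayed at 2-fold whichever array was left out. For 9 of the 16 lower ones that array was NN-TU 6. *Mup19*, a major urinary protein of liver, was also highest there, at 7.57, 7.84, 8.71 and 7.74 in UN-RG-TU, against 7.65, 14.21, 8.68 and 9.25 in NN-TU. Its log2 fold change of −1.98 was −0.56 without NN-TU 6, and that of *Alb* was −1.24 with all arrays and −0.21 without NN-TU 6. Near-identical copies of the *Mup* genes share probes, so that their split is uncertain. *Fabp2* at 1.66 and *Apoa4*, an apolipoprotein of enterocytes, at 1.04 stood at 0.07 and −0.18 without UN-RG-TU 13. *Prg4*, lubricin, was called at 1.44, with 9.88, 9.60, 11.52 and 11.09 in UN-RG-TU, against 10.01, 9.96, 7.38 and 8.98 in NN-TU, and was at 0.87 without NN-TU 7. The groups overlapped for *Prg4*. Some of the lower clusters without a gene symbol rested less on 1 array. TC0200004196.mm.2 was called at −1.22 and was at −0.91 without UN-RG-TU 14, its smallest difference with 1 array left out. It was also lower under vehicle, at −1.28. TC0900000004.mm.2 was called at −1.06 and was at −0.75 without NN-TU 5. The TUDCA groups overlapped for both. These genes and clusters were chosen after their values had been seen.

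Among genes whose groups did not overlap, *Phf19*, *Zfp362*, *Tmem119* and *Apold1* were higher and *Mpp2*, *Zfp939* and *Acss3* lower in UN-RG-TU. They are 7 of the 24 genes, 12 in each direction, with the largest differences among those called whose groups did not overlap and whose higher group mean was above the antigenomic median. Only clusters with 1 gene symbol were ranked. Among those without a symbol, TC4_JH584293_random00000008.mm.2 (0.71, SE 0.16) and TC0400000395.mm.2 (0.59, SE 0.17) met the other conditions. These clusters were called higher under vehicle as well, at 0.41 and 0.47. Under vehicle these 7 were not called, at 0.18 for *Phf19*, −0.18 for *Zfp362*, 0.06 for *Tmem119* and 0.29 for *Apold1*. *Mpp2* was at 0.09 there, *Zfp939* at −0.31 and *Acss3* at −0.34. The call under TUDCA was kept by these 7 whichever array was left out and under each other setting that tested them, and *Tmem177* kept it whichever array was left out. The level was reached through the higher group alone for *Phf19*, *Mpp2*, *Zfp939*, *Phf13* and *Sec14l2*. Their lower group lay among the antigenomic controls, at means of 5.92, 6.14, 6.29, 6.58 and 6.61 beside a mean antigenomic median of 6.63. The differences of these genes are therefore not exact.

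*Phf19*, a polycomb accessory protein that binds methylated histone H3, was at 7.29, 6.28, 6.43 and 6.66 in UN-RG-TU, against 5.94, 5.79, 6.11 and 5.84 in NN-TU. Its log2 fold change was 0.74 (SE 0.19, 95% interval 0.34 to 1.15). The gap between the groups was narrow, since the lowest UN-RG-TU array lay only just over the highest NN-TU array, and its mean level over all arrays exceeded only 40.0% of the antigenomic controls. *Zfp362*, a zinc finger protein, was at 8.63, 8.82, 8.90 and 8.62 in UN-RG-TU, against 8.22, 8.13, 8.14 and 8.10 in NN-TU, a difference of 0.60 (SE 0.17). Here the arrays within a group were close together. Under vehicle the groups overlapped for *Zfp362*, with 8.21, 8.26, 8.11 and 8.50 in UN-RG-Veh, against 8.03, 8.99, 8.51 and 8.26 in NN-Veh. *Tmem119*, a membrane protein best known as a marker of microglia and as a factor of bone-forming cells, was at 8.05, 8.09, 8.13 and 7.76 in UN-RG-TU, against 7.58, 7.55, 6.87 and 7.59 in NN-TU, a difference of 0.61 (SE 0.18). The low array was NN-TU 7, and without it the call remained. *Apold1*, an early response gene of endothelium, was at 8.23, 8.47, 8.48 and 8.04 in UN-RG-TU, against 7.67, 7.73, 7.56 and 7.92 in NN-TU, a difference of 0.58 (SE 0.17).

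*Acss3*, a mitochondrial ligase that activates short-chain fatty acids such as propionate, was at 10.42, 10.52, 10.29 and 10.23 in UN-RG-TU, against 11.21, 10.89, 10.55 and 11.11 in NN-TU. Its log2 fold change was −0.57 (SE 0.15, 95% interval −0.90 to −0.25). All 4 UN-RG-TU arrays lay below NN-TU, and under vehicle the difference was −0.34 (SE 0.15) without a call. *Mpp2*, a scaffold protein of membranes, was at 5.54, 6.52, 5.91 and 6.59 in UN-RG-TU, against 7.22, 7.0, 6.78 and 6.66 in NN-TU, a difference of −0.77 (SE 0.22). *Zfp939*, a zinc finger protein, was at 6.34, 6.17, 6.11 and 6.55 in UN-RG-TU, against 6.78, 7.05, 7.07 and 6.76 in NN-TU, a difference of −0.62 (SE 0.16). Both of these genes lay close to the antigenomic controls, of which 50.5% were below *Mpp2*. *Slc1a3*, a glutamate transporter, had the largest fall of the 24, at −0.92 (SE 0.33), with 9.36, 9.01, 8.04 and 9.57 in UN-RG-TU, against 10.37, 10.10, 9.60 and 9.59 in NN-TU. The lowest value was that of UN-RG-TU 15, without which the difference was −0.60.

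**Figure D2:**
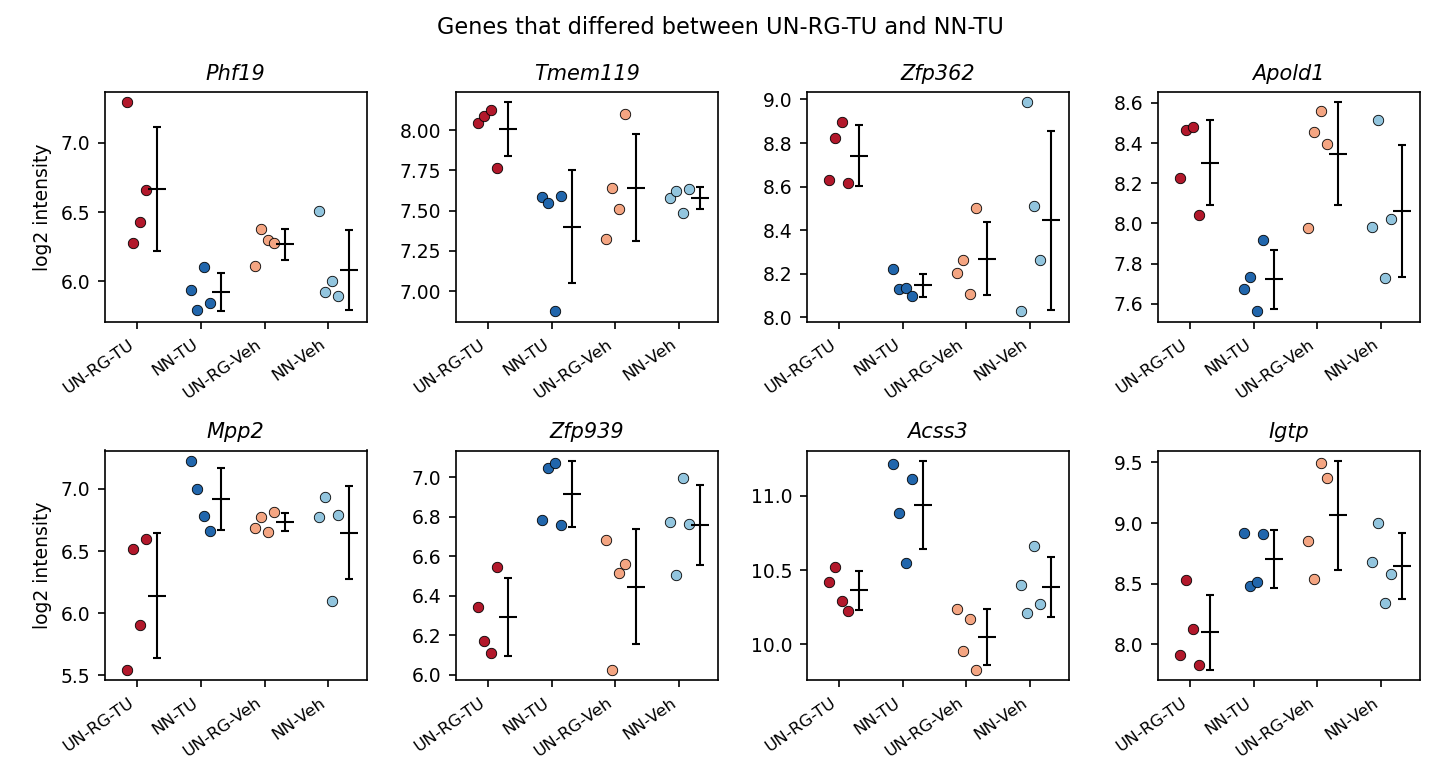
Log2 intensity of 8 genes on each array, by group in the order UN-RG-TU, NN-TU, UN-RG-Veh and NN-Veh, with each point an array and the bar the mean and SD of 4 arrays. *Phf19*, *Tmem119*, *Zfp362* and *Apold1* lie higher in UN-RG-TU on every array and *Mpp2*, *Zfp939* and *Acss3* lower, while *Igtp* overlaps (UN-RG-TU 7.83 to 8.53, NN-TU 8.48 to 8.92).

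The other 17 genes of the 24, *Slc1a3* among them, differed by 0.40 to 0.46 upward and by −0.92 to −0.44 downward, and most of their calls depended on 1 or more arrays. *Sec14l2*, a lipid-binding protein, at 0.46 (SE 0.17), was at 0.28 without UN-RG-TU 15. *Numbl*, an adaptor of Notch signaling, at 0.42 (SE 0.17), was at 0.38 without UN-RG-TU 15 and 0.35 without NN-TU 6. *Zfp61*, a zinc finger protein, at 0.40 (SE 0.16), was at 0.30, 0.35 and 0.39 without UN-RG-TU 13, NN-TU 6 and NN-TU 7. *Abcb9*, a peptide transporter of lysosomes, at 0.40 (SE 0.18), kept the call only without UN-RG-TU 14 or NN-TU 6 of the 8 arrays, with 0.31 to 0.42 where it was lost. *2610528A11Rik*, at 0.46 (SE 0.21), lost it without UN-RG-TU 13, UN-RG-TU 16, NN-TU 5, NN-TU 7 or NN-TU 8 (0.33 to 0.49). Among the falls, *Nmi*, an interferon-induced protein, at −0.46 (SE 0.14), was at −0.35 without NN-TU 6, and *Kif16b*, a kinesin of endosomes, at −0.44 (SE 0.12), was at −0.36 without the same array. *Phf13*, a reader of methylated histone H3, at −0.45 (SE 0.15), was at −0.37 without NN-TU 5. *Xpnpep3*, a mitochondrial aminopeptidase, at −0.53 (SE 0.21), was at −0.30 without UN-RG-TU 13, where it stood at 7.22 against 8.06 to 8.22 on the other 3 UN-RG-TU arrays. *Pja1*, a ubiquitin ligase, at −0.44 (SE 0.20), lost the call without UN-RG-TU 13, UN-RG-TU 16, NN-TU 5 or NN-TU 8 (−0.44 to −0.33), and *Tmem177*, a mitochondrial membrane protein, at −0.47 (SE 0.15), was at −0.35 without the arrays with cilia transcripts.

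Some genes differed by early nutrition in the same direction under TUDCA and under vehicle, which are comparisons without a shared array. Of the 547 clusters higher under vehicle 17 (3.11%) were also higher under TUDCA, or 6.61% of the 257 higher there, and of the 441 lower under vehicle 11 (2.49%) were also lower, or 7.33% of the 150. Over all clusters 1.16% were higher and 0.675% lower under TUDCA. The median difference of the 547 was 0.51 under vehicle and 0.09 under TUDCA, where 378 (69.1%) kept the sign. The 441 had a median of −0.53 and −0.07, with 290 (65.8%) of the same sign. Across all clusters, which are not independent of each other, Pearson's r between both differences was 0.21, and 0.17 over the 11964 clusters above the antigenomic median.

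Of the 17 higher in both, *Ccn5*, *Serpina3f*, *Cd109* and *Pkia* were the ones with a symbol and a level above the antigenomic median. *Ccn5*, a matricellular protein of the CCN family, was at 9.25, 10.10, 9.64 and 9.99 in UN-RG-TU, against 8.70, 9.57, 9.14 and 9.21 in NN-TU, a difference of 0.59 (SE 0.25), and at 0.86 (SE 0.25) between UN-RG-Veh and NN-Veh. The TUDCA groups overlapped for *Ccn5*, and the call was lost without UN-RG-TU 14 (0.47), UN-RG-TU 16 (0.51), NN-TU 5 (0.44) or NN-TU 7 (0.58). *Serpina3f*, a serine protease inhibitor of the cluster on chromosome 12, was at 8.23, 8.40, 8.45 and 8.15 in UN-RG-TU, against 7.90, 8.18, 7.61 and 7.56 in NN-TU, a difference of 0.50 (SE 0.16), and at 0.82 (SE 0.16) under vehicle. Its call held whichever array was left out and was lost only without the 4 arrays with cilia transcripts, at 0.38. Its groups overlapped on NN-TU 6. *Pkia*, an inhibitor of protein kinase A, differed by 0.41 and 0.39 under TUDCA and vehicle, and was at 0.34 without UN-RG-TU 15 and 0.35 without NN-TU 8. *Cd109*, a membrane protein that binds TGF-β, differed by 0.41 and 0.45, and was at 0.35, 0.40 and 0.32 without UN-RG-TU 13, NN-TU 5 and NN-TU 7.

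*Slc2a3*, a glucose transporter of high affinity, was a gene whose groups lay apart in both comparisons. It was at 5.98, 6.16, 5.75 and 6.04 in UN-RG-TU, against 6.95, 6.23, 6.48 and 6.78 in NN-TU, a difference of −0.63 (SE 0.16). Under vehicle it was at 5.33, 5.59, 5.45 and 5.80 in UN-RG-Veh, against 5.86, 6.14, 5.94 and 5.89 in NN-Veh, a difference of −0.41 (SE 0.16). It was lower on every UN-RG array of each treatment and kept the call under TUDCA in each setting that tested it, though its level exceeded only 35.9% of the antigenomic controls. *Slc2a3* was chosen after its values had been seen. In both comparisons 11 clusters lay above and 4 below without overlap, the other 3 below being *Tcaf2*, a regulator of TRP channels (−0.40 under TUDCA and −0.47 under vehicle, and −0.31 without UN-RG-TU 13 or −0.33 without NN-TU 6), *Stx2* and *Fer*. Over all clusters 0.959% lay above and 0.932% below without overlap under TUDCA, and 2.46% and 1.92% under vehicle. How many would lie apart in both if the comparisons were unrelated was not tested.

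*Tppp3*, a tubulin polymerization protein that marks ciliated cells and some progenitors, differed by −0.74 (SE 0.34) under TUDCA and −0.99 (SE 0.34) under vehicle, and lost the call without UN-RG-TU 13, UN-RG-TU 14, NN-TU 5, NN-TU 7 or NN-TU 8 (−0.69 to −0.50), and without the 4 arrays with cilia transcripts (−0.52). *Lrig1*, a membrane protein that restrains growth factor receptors, differed by −0.43 and −0.53, and was at −0.39, −0.36 and −0.36 without UN-RG-TU 13, UN-RG-TU 15 and NN-TU 8. *Adam15*, a metalloprotease, differed by −0.48 and −0.38 and was at −0.32 without UN-RG-TU 13. *Dis3l*, an exosome ribonuclease, and *Cdkl2*, a kinase, differed by −0.44 and −0.40 under TUDCA and by −0.51 each under vehicle. *Dis3l* lost the call without any 1 of UN-RG-TU 13, UN-RG-TU 14, UN-RG-TU 15, NN-TU 7 and NN-TU 8 (−0.48 to −0.27), and *Cdkl2* without any 1 of UN-RG-TU 14, UN-RG-TU 15, UN-RG-TU 16, NN-TU 5 and NN-TU 6 (−0.39 to −0.32).

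A few genes were called in opposite directions. Those higher under TUDCA and lower under vehicle numbered 5, or 1.13% of the 441 lower under vehicle (*Ptgs2*, *Limk1*, *Tspan8*, *Star* and *Acta2*), and *Ehhadh* alone was the reverse, 0.183% of the 547. These shares were no larger than those over all clusters, 1.16% higher and 0.675% lower under TUDCA. *Ptgs2*, the inducible cyclooxygenase, was at 5.52, 6.07, 5.76 and 5.28 in UN-RG-TU, against 5.27, 5.22, 4.91 and 4.61 in NN-TU. Under vehicle it was at 4.57, 4.65, 4.79 and 4.42 in UN-RG-Veh, against 5.63, 4.91, 5.43 and 5.40 in NN-Veh. The groups did not overlap in either comparison, and under TUDCA the lowest UN-RG-TU array was barely above the highest NN-TU array. The differences were 0.65 and −0.73 (SE 0.19 each), and their contrast was 1.39 (SE 0.27, adjusted p = 0.987 from limma). *Ptgs2* kept its call under TUDCA in each setting that tested it, at a level over only 20.5% of the antigenomic controls.

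*Acta2*, the actin of vascular smooth muscle, was at 15.58, 15.50, 15.97 and 15.59 in UN-RG-TU, against 15.07, 15.29, 15.40 and 15.19 in NN-TU, a difference of 0.42 (SE 0.18). Under vehicle it was at 15.16, 15.28, 15.32 and 14.68 in UN-RG-Veh, against 15.52, 16.27, 15.72 and 15.66 in NN-Veh, a difference of −0.69 (SE 0.18). Each UN-RG-TU array was above NN-TU and each UN-RG-Veh array below NN-Veh, and the call under TUDCA was lost without UN-RG-TU 15 (0.32), NN-TU 5 (0.37) or NN-TU 8 (0.41). *Cd200*, a membrane protein that restrains myeloid cells, was at 8.23, 7.64, 7.94 and 7.68 in UN-RG-TU, against 7.32, 7.47, 7.38 and 7.55 in NN-TU, a difference of 0.44 (SE 0.13), and at −0.27 (SE 0.13) under vehicle without a call. It was at 0.33 without UN-RG-TU 13. *Ehhadh*, the bifunctional enzyme of peroxisomal fatty acid oxidation, was at 10.69, 10.75, 10.83 and 10.59 in UN-RG-TU, against 10.94, 11.12, 10.99 and 11.59 in NN-TU, a difference of −0.44 (SE 0.16), and was at 0.50 (SE 0.16) under vehicle. It lost the call without NN-TU 8 (−0.30) and without the 4 arrays with cilia transcripts (−0.31).

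**Figure D3:**
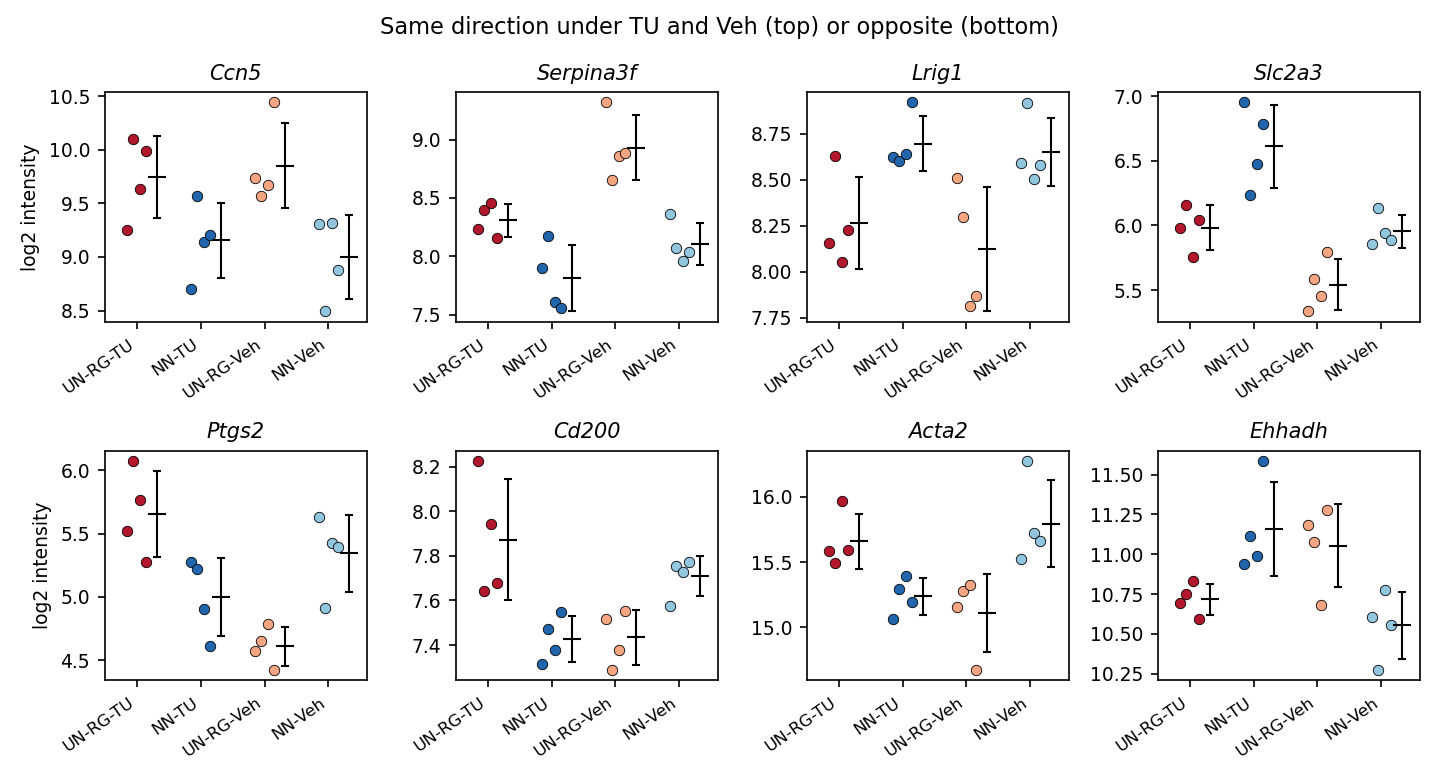
Log2 intensity on each array of genes that differed by early nutrition in the same direction under both treatments, or in opposite directions, by group in the order UN-RG-TU, NN-TU, UN-RG-Veh and NN-Veh, with each point an array and the bar the mean and SD of 4 arrays. *Slc2a3* lies lower in UN-RG on every array of either treatment, while *Ptgs2* and *Acta2* lie higher in UN-RG mice under TUDCA and lower under vehicle.

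Genes of the response to interferon-γ, which were higher in UN-RG than in NN mice under vehicle, were not higher under TUDCA. Of 18 measured, 0 were higher and 1, *Igtp*, was lower in UN-RG-TU, with a median difference of −0.19 and 15 of 18 below 0, beside a median of 0.01 over all clusters. Under vehicle 9 were higher and 0 lower, with a median of 0.44. The shares over all clusters were 1.16% higher and 0.675% lower under TUDCA, and 2.46% and 1.99% under vehicle. The mean level of the 18 was 9.96 ± 0.30 in UN-RG-TU, 10.16 ± 0.11 in NN-TU, 10.65 ± 0.19 for the UN-RG-Veh arrays and 10.16 ± 0.05 in NN-Veh (SD, n = 4 arrays). The lowest UN-RG-TU array was UN-RG-TU 13 at 9.53, against 10.02 to 10.20 on the other 3, and without it the median under TUDCA was −0.07. Without UN-RG-TU 14, the highest of the 4, 4 genes of the list were lower, and there were 3 without NN-TU 7 and 2 without UN-RG-TU 15.

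*Igtp*, an immunity-related GTPase of the defence against intracellular parasites, was at 7.91, 8.53, 8.13 and 7.83 in UN-RG-TU, against 8.92, 8.48, 8.51 and 8.91 in NN-TU, a difference of −0.60 (SE 0.22). The groups overlapped by 1 array, UN-RG-TU 14, and the call held in each setting that tested it. Under vehicle it was at 8.85, 8.54, 9.49 and 9.37 in UN-RG-Veh, against 8.68, 9.00, 8.35 and 8.58 in NN-Veh, a difference of 0.42 (SE 0.22). Its neighbour of the same family *Irgm2* differed by −0.36 (SE 0.24) under TUDCA and 0.57 (SE 0.24) under vehicle. *Gbp2*, a guanylate-binding protein that is strongly induced by interferon-γ, was at 11.90, 12.38, 12.30 and 12.37 in UN-RG-TU, against 12.64, 12.23, 12.48 and 12.29 in NN-TU, and at 12.98, 13.01, 13.32 and 12.64 in UN-RG-Veh, against 12.64, 12.48, 12.38 and 12.33 in NN-Veh. Its differences were −0.17 (SE 0.16, 95% interval −0.50 to 0.15) and 0.53 (SE 0.16). *Psmb8* of the immunoproteasome differed by −0.16 (SE 0.17) and 0.53 (SE 0.17), and *Tap1*, a subunit of the peptide transporter, by −0.29 (SE 0.22) and 0.47 (SE 0.22).

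The promoters of *Igtp*, *Irgm2* and *Gbp2* are shown because *Igtp* was the single member called and the others are GTPases of the same response. From RefSeq on GRCm38.p6, the 250 bases before each start are given 5′ to 3′ on the strand of the gene, with capitals for the GAS motif (TTCNNNGAA) and the ISRE core (GAAA, any 2 bases, then GAAA, or the reverse complement). *Igtp* lies at chr11:58199306-58199555 (+), *Irgm2* at chr11:58214727-58214976 (+) and *Gbp2* at chr3:142620413-142620662 (+).
Igtp: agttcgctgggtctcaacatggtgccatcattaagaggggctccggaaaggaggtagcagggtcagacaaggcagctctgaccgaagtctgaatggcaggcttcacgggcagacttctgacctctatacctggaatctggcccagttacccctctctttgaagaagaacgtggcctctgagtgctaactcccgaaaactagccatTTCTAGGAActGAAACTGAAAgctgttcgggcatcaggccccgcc
Irgm2: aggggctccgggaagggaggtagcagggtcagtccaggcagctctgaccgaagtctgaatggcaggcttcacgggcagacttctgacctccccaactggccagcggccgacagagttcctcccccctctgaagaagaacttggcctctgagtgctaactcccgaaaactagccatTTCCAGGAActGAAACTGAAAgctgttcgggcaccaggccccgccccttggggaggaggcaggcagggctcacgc
Gbp2: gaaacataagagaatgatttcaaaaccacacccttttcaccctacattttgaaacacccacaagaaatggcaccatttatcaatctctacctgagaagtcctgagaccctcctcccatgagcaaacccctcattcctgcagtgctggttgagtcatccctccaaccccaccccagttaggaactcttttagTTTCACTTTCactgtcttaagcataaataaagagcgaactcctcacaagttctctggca
In *Igtp* the GAS motif began 45 bases and the ISRE core 34 bases before the start, in *Irgm2* 75 and 64 bases, and in *Gbp2* an ISRE core on the reverse strand began 59 bases before it. No motifs overlapped. Of the 18 genes of the list 13 matched a promoter, of which 5 (38.5%) held a GAS motif, 6 (46.2%) an ISRE core and 8 (61.5%) at least 1 of both, on either strand. Among all 32851 promoters of the same length these shares were 7.02%, 2.98% and 9.66%. A gene of the list counted if any of its promoters held a motif, whereas the shares over all are per promoter. The motifs are matches of letters.

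MHC class I genes showed a like pattern. Of 8 measured 0 were called under TUDCA, with a median of −0.22 and 7 of 8 below 0, and 5 were higher under vehicle, with a median of 0.45. *H2-K1*, a class I heavy chain, was at 15.68, 16.19, 15.62 and 15.97 in UN-RG-TU, against 16.16, 16.15, 16.02 and 16.19 in NN-TU (−0.27, SE 0.15), and at 16.36, 16.62, 16.69 and 16.93 in UN-RG-Veh, against 16.07, 16.22, 16.18 and 15.87 in NN-Veh (0.57, SE 0.15). Among the 21 measured of the response to type I interferons 0 were called under TUDCA (median −0.13) and 5 were higher under vehicle (median 0.33). Of 15 genes of natural killer and cytotoxic cells 0 were called under TUDCA (median −0.06) and 6 were higher under vehicle (median 0.36). The share higher under vehicle over all clusters was 2.46%.

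**Figure D4:**
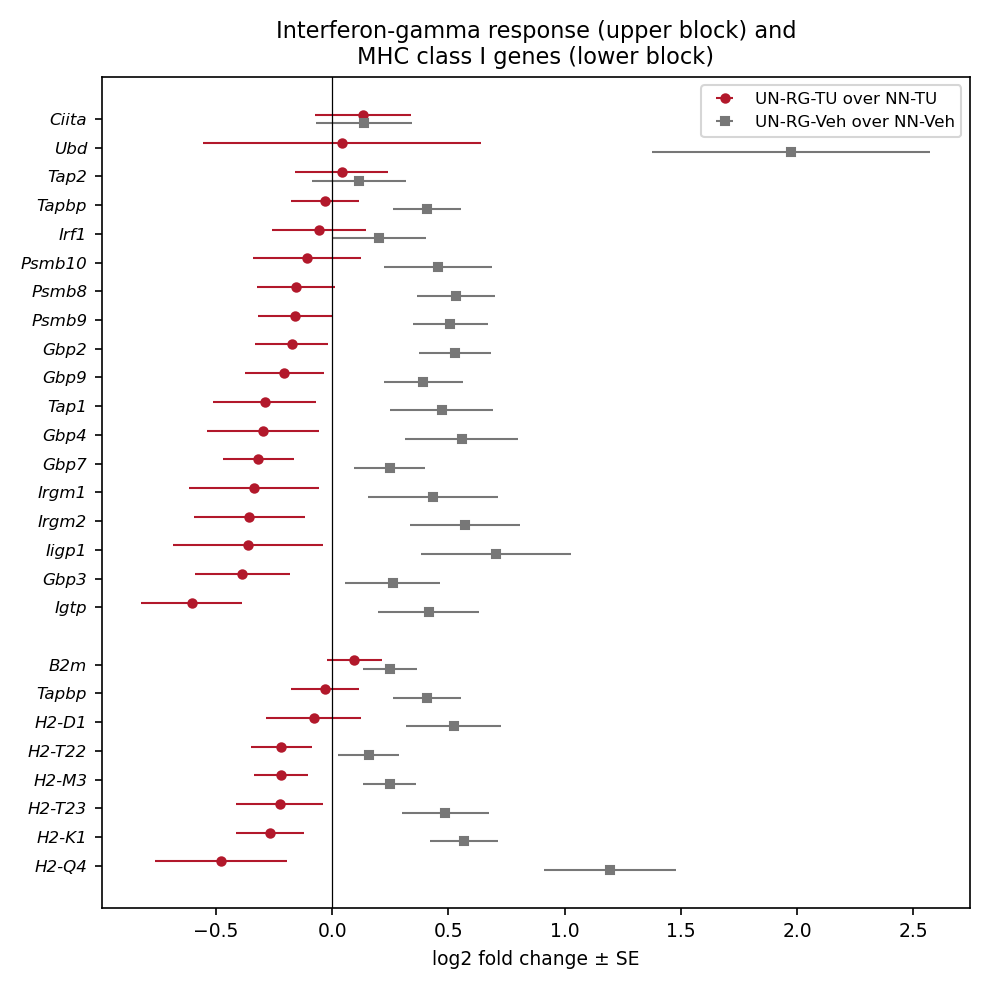
Log2 fold change with its SE of each gene of the interferon-γ list and of MHC class I, UN-RG-TU over NN-TU (red) and UN-RG-Veh over NN-Veh (grey). Under TUDCA the members lie between −0.60 and 0.13, 15 of 18 of the interferon list below 0, and under vehicle all 18 lie above 0.

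The difference between the 2 comparisons was tested as an interaction, the difference by early nutrition under TUDCA minus that under vehicle. At the study's thresholds 302 clusters (1.36%) were higher and 365 (1.64%) lower, and 0 passed an adjusted p of 0.05 by limma, with 701 (3.16%) at an unadjusted p under 0.05. Of the interferon-γ list 13 of 18 were lower at these thresholds, with a median of −0.68, and this count was 6 without UN-RG-Veh 12, 8 without UN-RG-TU 13 and 13 without the arrays with cilia transcripts. It was 5 without the arrays with transcripts of intestine and liver, UN-RG-TU 13 and NN-TU 6. That setting kept NN-Veh 4, the vehicle array with the highest mean of liver genes. Of MHC class I 5 of 8 were lower, of type I interferon 4 of 21 and of natural killer cells 4 of 15.

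*Lyve1*, a receptor for hyaluronan on lymphatic endothelium and some resident macrophages, had the smallest p of the interaction, at 1.60 (SE 0.26, adjusted p = 0.261 from limma). It was at 12.34, 12.42, 12.17 and 12.63 in UN-RG-TU, against 12.15, 11.73, 12.75 and 12.48 in NN-TU, and at 11.23, 11.12, 11.57 and 11.21 in UN-RG-Veh, against 12.68, 12.94, 12.73 and 12.73 in NN-Veh. The TUDCA groups overlapped, with a difference of 0.11 (SE 0.18, 95% interval −0.27 to 0.50), where the vehicle groups lay apart. Without NN-TU 7 the interaction was 1.76 (SE 0.23) and passed, with an adjusted p = 0.0416 from limma. *Casp1*, the inflammasome protease, was at 11.67, 11.45, 11.59 and 11.91 in UN-RG-TU, against 11.39, 11.50, 11.84 and 11.36 in NN-TU, a difference of 0.13 (SE 0.14, 95% interval −0.17 to 0.42), and its interaction was −0.97 (SE 0.20, adjusted p = 0.987 from limma). *Reep1*, a shaper of the endoplasmic reticulum, was at 0.92 in the interaction, *Abi3bp*, a matrix protein, at 0.95, and *Tgfb1i1*, a focal adhesion protein of smooth muscle, at 1.31. Between UN-RG-TU and NN-TU *Reep1* differed by 0.27, *Abi3bp* by 0.09 and *Tgfb1i1* by 0.39, each without a call. *Dusp26*, a phosphatase, was at −0.95, and the class I genes *H2-Q4* at −1.67 and *H2-Q5* at −1.60, of which near-identical copies make the split uncertain.

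Macrophage genes were not called under TUDCA, with 0 of 15 in either direction and a median of 0.11, which was −0.09 without NN-TU 8 and 0.31, with 2 called higher, without NN-TU 7. Under vehicle 5 were higher, with a median of 0.24. Genes of lipid-associated macrophages, 13 measured, had 0 called and a median of 0.15, which was −0.16 without NN-TU 8 and 0.47 without NN-TU 7, so that the direction depended on single arrays. Of 12 genes of resident macrophages 1, *Vsig4*, was higher under TUDCA, and 4 were lower under vehicle. Of 14 inflammasome genes 0 were called under TUDCA (median 0.02), and 4 were higher under vehicle. Over all clusters 1.16% were higher and 0.675% lower under TUDCA, and 2.46% and 1.99% under vehicle.

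Of 27 chemokines and cytokines 4 were higher and 0 lower in UN-RG-TU, with a median of 0.11, beside 1.16% higher and 0.675% lower over all clusters. *Il6*, an inflammatory interleukin, was at 5.40, 5.88, 5.38 and 4.99 in UN-RG-TU, against 4.72, 4.67, 4.67 and 4.54 in NN-TU, a difference of 0.76 (SE 0.25) that was 0.57, without a call, when the 4 arrays with cilia transcripts were left out. *Il10*, an interleukin that dampens inflammation, was at 6.48, 6.07, 6.11 and 6.08 in UN-RG-TU, against 5.76, 5.49, 5.98 and 5.66 in NN-TU, a difference of 0.46 (SE 0.16) that was 0.36 without UN-RG-TU 13. Both lay apart on all 8 arrays, at levels over 23.2% and 38.6% of the antigenomic controls. *Cxcl13*, a chemokine for B cells that mesothelium and fat-associated lymphoid clusters make, was at 8.95, 9.79, 10.67 and 9.29 in UN-RG-TU, against 8.99, 9.02, 7.75 and 8.95 in NN-TU, a difference of 0.99 (SE 0.38), and was at 0.66 without UN-RG-TU 15 and 0.69 without NN-TU 7. *Ccl19*, a chemokine of lymphoid tissue, differed by 0.42 (SE 0.15) and was at 0.37, 0.32 and 0.32 without UN-RG-TU 14, UN-RG-TU 16 and NN-TU 5. Among lymphocyte genes *Cd3d* of the T cell receptor complex, at 0.59 (SE 0.15), and *Pou2af1*, a coactivator of B cells, at 0.51 (SE 0.17), were the single members called of 16 and 12, both near or below the antigenomic controls.

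Of 12 genes of mast cells and eosinophils 3 were higher and 0 lower in UN-RG-TU, with a median of 0.18, beside 1.16% higher over all clusters, and only 1 was higher without UN-RG-TU 14, NN-TU 7 or NN-TU 8. *Tpsb2*, a tryptase of mast cell granules, was at 7.93, 7.65, 7.16 and 7.96 in UN-RG-TU, against 7.20, 7.13, 7.05 and 6.61 in NN-TU, a difference of 0.67 (SE 0.21) that kept its call in each setting that tested it. *Mcpt4*, a chymase, was at 6.56, 7.27, 6.22 and 7.82 in UN-RG-TU, against 6.64, 6.15, 5.78 and 5.69 in NN-TU, a difference of 0.90 (SE 0.36). *Cpa3*, a carboxypeptidase of the same granules, was at 9.29, 9.37, 8.79 and 10.10 in UN-RG-TU, against 9.32, 8.72, 8.29 and 8.36 in NN-TU, a difference of 0.72 (SE 0.32). UN-RG-TU 16 was the highest array for all of these granule genes, and without it *Mcpt4* was at 0.62 and *Cpa3* at 0.48, neither called. The groups overlapped for each of the 3. *Mcpt4* also lost the call without UN-RG-TU 14, NN-TU 7 or NN-TU 8 (0.78 to 0.81), and *Cpa3* without UN-RG-TU 13, UN-RG-TU 14, NN-TU 6, NN-TU 7 or NN-TU 8 (0.59 to 0.75). The receptors *Kit* and *Fcer1a* of mast cells stood at −0.24 (SE 0.37) and 0.10 (SE 0.17), without a call.

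Markers of mesothelium were above 0 in 12 of 12 measured under TUDCA, with a median of 0.43, and only *Krt7*, a keratin of simple epithelia, was called, at 0.61 (SE 0.27). The list mean was 7.70, 8.72, 9.02 and 8.33 in UN-RG-TU, against 8.47, 7.59, 7.54 and 8.58 in NN-TU, so that the groups overlapped widely. Leaving out UN-RG-TU 13 gave 4 called and a median of 0.76, leaving out NN-TU 5 gave 2 called, and leaving out UN-RG-TU 15, NN-TU 6, NN-TU 7 or NN-TU 8 gave 0 called, with a median of 0.25 without UN-RG-TU 15. *Krt7* was at 0.38 without UN-RG-TU 15 and lost the call as well without UN-RG-TU 16, NN-TU 6, NN-TU 7 or NN-TU 8 (0.49 to 0.61). Under vehicle 3 were lower, with a median of −0.73, and in the interaction 4 were higher, with a median of 1.18. The shares over all clusters were 1.99% lower under vehicle and 1.36% higher in the interaction. Of 17 genes of smooth muscle and pericytes 3 were higher under TUDCA, beside 1.16% of all clusters, *Acta2*, *Actg2* and *Tagln*, the calponin-like protein transgelin (0.54, SE 0.25, and not called without UN-RG-TU 14, UN-RG-TU 15, NN-TU 5 or NN-TU 6, at 0.26 to 0.49). That count was 0 without NN-TU 5, 1 without UN-RG-TU 14, UN-RG-TU 15 or NN-TU 6, 2 without NN-TU 7 or NN-TU 8, and 4 without UN-RG-TU 13 or UN-RG-TU 16. On UN-RG-TU 15, the highest array for *Acta2*, *Tagln*, *Krt7* and *Cxcl13* in that group, the mesothelium markers were also highest, and their part in these differences was not tested.

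Genes of the cell cycle, 31 measured, had 1 called higher, *Cep55*, beside 1.16% of all clusters, and 24 above 0, with a median of 0.24. Their mean level was 7.14, 7.88, 7.50 and 7.66 in UN-RG-TU, against 6.95, 7.42, 7.94 and 7.09 in NN-TU. NN-TU 7 was the highest of the 8 arrays, and without it 10 members were called and the median was 0.37. Without UN-RG-TU 13 there were 5 called. The median was 0.07 without NN-TU 5 and 0.00 without the arrays with cilia transcripts. *Mki67*, the proliferation marker, differed by 0.47 (SE 0.34) without a call.

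Adipocyte genes, the lipid pathways and mitochondria differed little between the TUDCA groups. Of 15 adipocyte genes 0 were called under TUDCA, with differences of −0.16 to 0.16 and a median of 0.02. *Plin1*, the perilipin that coats lipid droplets, differed by 0.01 (SE 0.12, 95% interval −0.24 to 0.26) and *Lep*, leptin, by 0.02 (SE 0.11, 95% interval −0.21 to 0.25). In the synthesis of fatty acids and triglycerides 0 of 17 genes were called under TUDCA (median 0.02), whereas 5 were lower and 1 higher under vehicle (median −0.18). *Elovl6*, which elongates fatty acids, was at 11.32, 10.30, 11.56 and 10.69 in UN-RG-TU, against 11.13, 10.74, 10.92 and 11.46 in NN-TU, and at 10.03, 9.96, 9.65 and 9.27 in UN-RG-Veh, against 10.89, 12.05, 11.20 and 11.19 in NN-Veh. It differed by −0.09 (SE 0.28, 95% interval −0.70 to 0.51) under TUDCA and by −1.61 (SE 0.28) under vehicle. Its interaction was 1.51 (SE 0.40), where 0 clusters passed an adjusted p of 0.05 by limma. *Fasn*, fatty acid synthase, differed by 0.03 (SE 0.23) and −0.65 (SE 0.23). Of 20 subunits of oxidative phosphorylation 0 were called (median 0.00), and of 15 genes of mitochondrial β-oxidation 1 was lower, *Cpt2*, a carnitine palmitoyltransferase, at −0.38 (SE 0.18), which lost the call without UN-RG-TU 13, UN-RG-TU 15, NN-TU 5, NN-TU 6 or NN-TU 8 (−0.40 to −0.24). Of 22 collagens and matrix genes 0 were called under TUDCA and 5 were lower and 1 higher under vehicle. The shares over all clusters were 0.675% lower under TUDCA, and 2.46% higher and 1.99% lower under vehicle.

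The unfolded protein response, the pathway that TUDCA is used to relieve, had 1 of 21 genes called between the TUDCA groups, beside 1.83% of all clusters, and a median of 0.00. *Chac1*, an enzyme that degrades glutathione and a late target of that response, was at 6.39, 6.36, 6.42 and 7.02 in UN-RG-TU, against 6.34, 6.05, 5.63 and 5.38 in NN-TU, a difference of 0.70 (SE 0.21). It kept the call in each setting that tested it, near the level of the antigenomic controls. *Hspa5*, the main chaperone of the endoplasmic reticulum, was at 16.66, 16.88, 16.68 and 16.72 in UN-RG-TU, against 16.42, 16.58, 17.15 and 16.80 in NN-TU, a difference of 0.00 (SE 0.15, 95% interval −0.31 to 0.31).

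**Figure D5:**
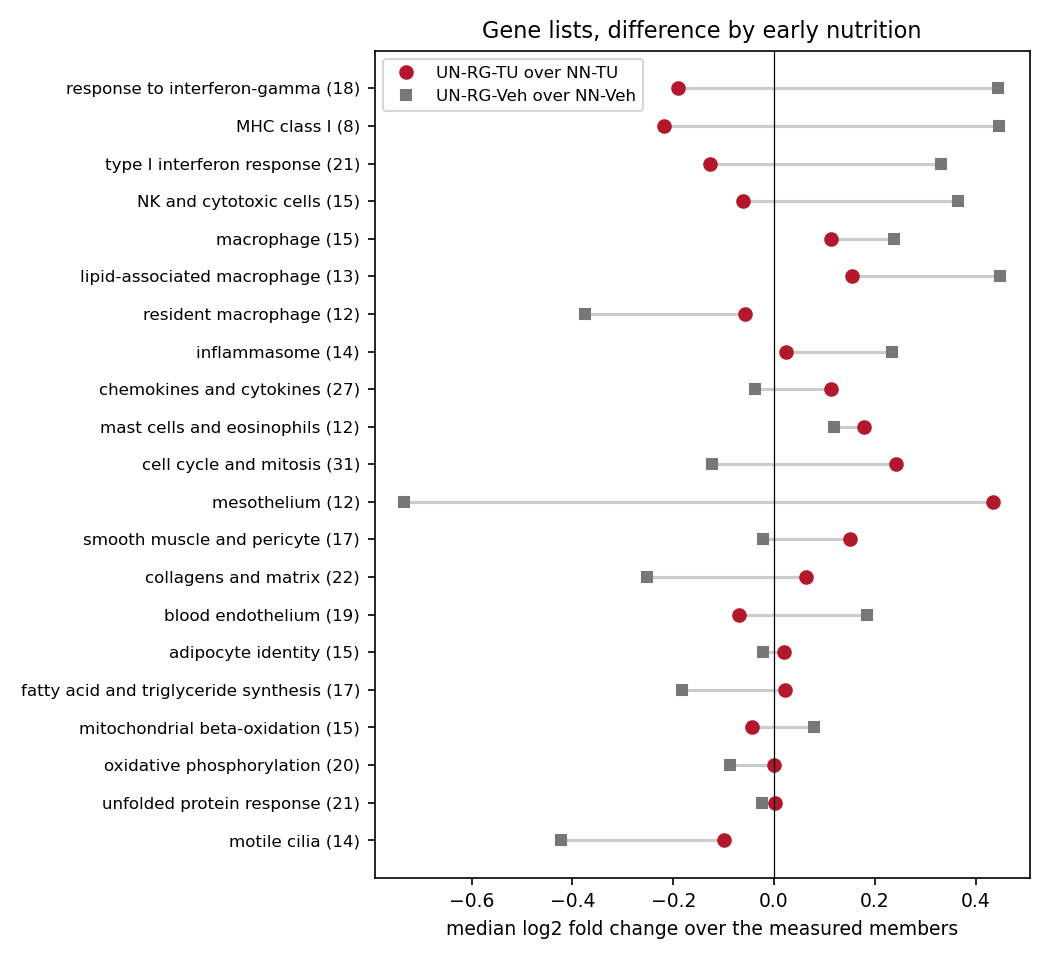
Median log2 fold change over the measured members of 21 gene lists, UN-RG-TU over NN-TU (circles) and UN-RG-Veh over NN-Veh (squares), with the number of members in parentheses. The medians of the interferon-γ list are −0.19 and 0.44, of MHC class I −0.22 and 0.45, and of mesothelium 0.43 and −0.73, while those of adipocyte identity and oxidative phosphorylation lie close to 0.

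Blood endothelium, 19 genes measured, had a median of −0.07 under TUDCA with 9 members above 0, and 1 was lower, *Esam*, an adhesion molecule of endothelial junctions, at −0.41 (SE 0.14). It was at 9.06, 9.46, 9.24 and 9.60 in UN-RG-TU, against 9.71, 9.75, 9.69 and 9.86 in NN-TU, and at −0.32 without UN-RG-TU 13. *Gja5*, the connexin of arterial endothelium, was at 7.72, 8.20, 7.83 and 8.14 in UN-RG-TU, against 8.28, 8.44, 8.46 and 8.30 in NN-TU, a difference of −0.40 (SE 0.15) that lost the call without UN-RG-TU 13, UN-RG-TU 15, NN-TU 6 or NN-TU 7 (−0.37 to −0.32). *Gja5* stands outside that list and was chosen after its values had been seen. *Npas2*, a clock transcription factor, was the 1 called of 16 clock genes, at −0.48 (SE 0.18), and was at −0.33 without UN-RG-TU 16 and −0.40 without NN-TU 8. The share lower under TUDCA over all clusters was 0.675%.

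Of the 6 genes the study named as not restored by TUDCA, 4 were measured here and all 4 were higher in UN-RG-TU. This is not independent evidence, since they were chosen on these arrays. The study prints these 4 with a negative sign under the heading NN-TU vs UN-RG-TU, whereas a positive difference here means higher in UN-RG-TU. Under its heading NN-Veh vs UN-RG-Veh a positive sign stands for higher in UN-RG-Veh, as for *Saa3*. Read in that way, the direction it prints for these 4 is opposite to that found here. *Gm10720* and *Gm10800*, which it prints with a positive sign, had no match by symbol here. Whether clusters without a symbol hold them was not tested. Under vehicle 0 of the 4 measured genes were called, at −0.43 for *Actg2*, −0.24 for *Cep55*, −0.11 for *Vsig4* and 0.06 for *5730522E02Rik*. Of these only *5730522E02Rik*, a long non-coding transcript, had groups that lay apart and a call that held in each setting that tested it, though its level exceeded only 24.1% of the antigenomic controls and it had no value with the filter on dim clusters. *Cep55*, of the final step of cell division, kept its call whichever array was left out and lost it by the methods' t-test. *Actg2*, the actin of visceral smooth muscle, was highest in each group on the array with cilia transcripts, UN-RG-TU 14 at 7.24 and NN-TU 8 at 6.35. Its call held without the 4 arrays with cilia transcripts and with a term for them, and the cause of its difference was not tested. Both its group means, 5.94 in UN-RG-TU and 4.81 in NN-TU, lay below the antigenomic median, so that its differences are not exact. It was not called without UN-RG-TU 14 (0.69), NN-TU 5 (1.0), NN-TU 6 (0.90) or NN-TU 7 (0.97), nor *Vsig4*, a complement receptor of resident macrophages, without UN-RG-TU 16 (0.61), NN-TU 6 (0.77) or NN-TU 8 (0.73). Of 7 further genes of interest to the study only *Ptgs2* was called under TUDCA, beside 1.83% of all clusters. *Saa3*, an acute phase protein of fat, differed by 0.61 (SE 0.73, 95% interval −0.93 to 2.14), *Ubd*, a ubiquitin-like protein induced by interferon-γ, by 0.04 (SE 0.60), *S100a8*, an alarmin of myeloid cells, by 0.47 (SE 0.44), *Hpx*, hemopexin, by 0.05 (SE 0.33), and *Agt*, angiotensinogen, by −0.17 (SE 0.32).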

How the data were processed

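The authors hybridised adipose tissue RNA to Clariom S mouse arrays, and the deposited table holds normalized linear intensities of 16 arrays. Transcriptome Analysis Console is named in the submitters' processing notes, and its normalization method is not given in the sources used here. Of 22520 entries 314 are controls, leaving 22206 transcript clusters, 19572 with 1 gene symbol. The design had assumed log2 values, and the values proved linear. The log2 of the deposited intensity was fitted with limma 3.58.1 (R 4.3.3; Python 3.11.15 for figures) as 4 group means with Benjamini-Hochberg adjustment over all clusters, and tested on simulated data. Depth has no meaning for arrays, so that their number limits the precision. Array medians were 7.00 to 7.16. Genes were named by rule: up to 6 by adjusted p in any contrast, the 12 largest rises and falls under TUDCA with groups apart and above antigenomic controls, up to 3 members of lists with at least 3 and 20% of members called, the study's own genes, the 5 smallest p in each direction of the interaction, and up to 6 each way called under both treatments. The largest rises and falls were sought among clusters with 1 gene symbol. Of 59 gene lists 57 came from general knowledge. The comparison, members and lists were chosen with earlier results of these data known. Alternatives were other scalings, a filter on dim clusters, the methods' t-test, other limma settings, arrays left out and, chosen after seeing the data, the arrays with transcripts of liver or intestine left out. Single arrays far from their group were sought with Dixon's test.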

Additional observations from a re-analysis of the deposited data

Results flagged for a closer look

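In 13 of 190 groups of 4 arrays, 95 genes of the text in 2 TUDCA groups, 1 array stood far from the other 3 by Dixon's test, where chance gives about 1 in 20 groups (5%). In UN-RG-TU, *Xpnpep3* was at 7.22 on UN-RG-TU 13 against 8.06 to 8.22 on the others, *Il10* at 6.48 and *Gbp2* at 11.90 on the same array, *H2-Q5* at 9.44 on UN-RG-TU 14, and *Chac1* at 7.02 on UN-RG-TU 16. In NN-TU, *Adipoq* was at 18.04 and *Upk1b*, a uroplakin of mesothelium, at 10.8 on NN-TU 5, *Tppp3* at 9.75 on NN-TU 6, and *Tmem119* at 6.87, *Cxcl13* at 7.75 and *Bub1*, a mitotic kinase, at 6.92 on NN-TU 7. *Actg2* at 6.35 and *Lrig1* at 8.92 stood apart on NN-TU 8.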

How the results depend on the processing

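The count of clusters past an adjusted p of 0.05 between UN-RG-TU and NN-TU was 0 in every setting tried, and that of the interaction was 0 in every setting except without NN-TU 7, where it was 1. At the study's thresholds, 257 clusters higher and 150 lower became 69 and 73 with the filter on dim clusters (68 and 72 of them among the 257 and 150), 122 and 103 by the methods' t-test, 601 and 307 without the 4 arrays with cilia transcripts (185 and 107 shared), and 317 and 178 without the arrays with transcripts of liver or intestine (139 and 81 shared), the last chosen after seeing the data. With 1 array left out the count was 225 to 711 higher and 172 to 265 lower. Quantile normalization gave 208 and 211, and centring 194 and 163. A term for the cilia arrays gave 346 and 202, the 2 groups alone 216 and 145, and an intensity trend with a robust prior 272 and 149. Genes near the antigenomic controls gave no value with the dim filter. Of 57 called genes recomputed in every setting 0 changed sign under TUDCA, while uncalled values did: the macrophage median was −0.09 and that of lipid-associated macrophages −0.16 without NN-TU 8, and *Apoa4* was at −0.18 without UN-RG-TU 13. Without the cilia arrays the calls of *Abcb9*, *Pja1*, *Dis3l*, *Cpt2*, *Cpa3*, *Mcpt4*, *Krt7*, *Tagln* and *Vsig4* were also lost, and by the methods' t-test those of *Actg2*, *Ccl19*, *Ccn5*, *Cpa3*, *Cpt2*, *Cxcl13*, *Dis3l*, *Krt7*, *Mcpt4*, *Npas2*, *Sec14l2*, *Slc1a3*, *Tagln*, *Tppp3*, *Vsig4* and *Xpnpep3*. The causes were not tested. No paired analysis was possible because the replicate numbers 1 to 16 never occur in more than 1 group. The number of arrays, 4 a group, limits the precision.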
